A study of Mus musculus with 4 samples.

Results

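The interleukin and tumour necrosis factor (TNF) superfamily genes were taken as all genes whose symbol on the array is Il followed by a number, or Tnfsf or Tnfrsf followed by a number, and the brightest probe (over both genotypes and 4 arrays) stood for each gene. The array carries 113 such genes on 146 probes, of 24357 named genes in all: 82 have interleukin-type names, which cover the cytokines, their receptors and their binding proteins, and 31 belong to the TNF superfamily. The other genes of the same families that go under other names (Tnf, Fas, Osmr, Lif and the like) are described at the end. RNA came from ureters of mouse embryos of the NMRI strain, dissected near the end of gestation, at E18.5. The mutant, called cKO below, carried Pax2-cre/+; Trp63(dN-flox/dN-flox), so that the ΔN form of p63, a transcription factor of basal epithelial cells, is targeted by a Cre recombinase under Pax2, a gene of the nephric duct and of the ureteric epithelium that grows from it. The control was Trp63(dN-flox/?), with the second allele not given and no Cre listed; both genotypes carried at least 1 floxed allele. Each of 4 two-colour arrays set 1 cKO RNA against 1 control RNA of the same sex (array 2 male, arrays 1, 3 and 4 female), with the dyes exchanged between arrays 1 and 3 and arrays 2 and 4; the labels do not say whether an RNA came from 1 embryo or a pool.

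Interleukins are secreted messengers that act through paired receptor chains: 1 chain usually binds the cytokine and a shared chain carries the signal to JAK kinases and STAT factors, or, in the IL-1, IL-18 and IL-17 families, to adaptors upstream of NF-kB. TNF superfamily ligands bind trimeric receptors, some with a death domain that can trigger apoptosis, some without a signalling tail that act as decoys. Epithelia are both sources of these cytokines (IL-18, the IL-1 receptor antagonist, IL-33) and targets of them (the IL-20 and IL-17 receptors), while many other members belong to T cells, B cells and mast cells.

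The 4 members with the lowest adjusted p are shown here by the first 30 bases of their 60-base array probes, because these are the sequences whose hybridisation gave the values below. Positions are those of the array's annotation (build mm9); the exon each lies in was not annotated here.
Il20ra probe, chr10:19479702-19479731, plus strand: tggggactttatacagaagagctcaccatg
Tnfrsf18 probe, chr4:155402941-155402970, plus strand: ccaccaagagcaccacgtttagcacaagat
Il18 probe, chr9:50389761-50389790, plus strand: aggatgaaaatggggataaatctgtaatgt
Il6ra probe, chr3:89674084-89674113, minus strand: aggaccaagtgcagtaacggtagcccaaac

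Of the 113 members, 77 were tested, having a probe well above background on all 4 arrays in at least 1 genotype, against 18170 genes tested in all. The other 36, of which 15 were well above background on no array in either genotype, have no test. They include Il2, Il4, Il5, Il10, Il13, Il17a and Il21, cytokines of activated T cells, and Il6, which was well above background on 2 arrays in the cKO and 3 in the control. At an adjusted p of 0.05 (limma on the log2 ratios, Benjamini-Hochberg over all genes tested), 3 members rose in the cKO, 8 fell and 66 did not pass. The called share was 14.3% of the tested members against 8.54% of all genes tested. By direction it was 3.90% higher against 2.92% and 10.4% lower against 5.62%. At an unadjusted p of 0.05 in limma, 11 of the 77 members were higher and 16 lower. The same counts over all 18170 genes tested were 1970 and 2330, and the unadjusted counts of groups below are to be read beside these. The called counts of groups below, most of them small, are to be read beside the 8.54% of all genes. The median log2 ratio of the tested members was -0.01, against 0.00 over all genes, and 71 of the 77 differed by less than 0.5 on the log2 scale, a size that 5.59% of all genes reached. The ratio was above 0 on all 4 arrays for 12 members and below 0 on all 4 for 16, where 14.3% and 16.3% of all genes were. Receptors and binding proteins held all 8 of the lower calls, among 52 tested. Ligands held 2 of the 3 higher calls, among 21 tested.

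**Figure D1:**
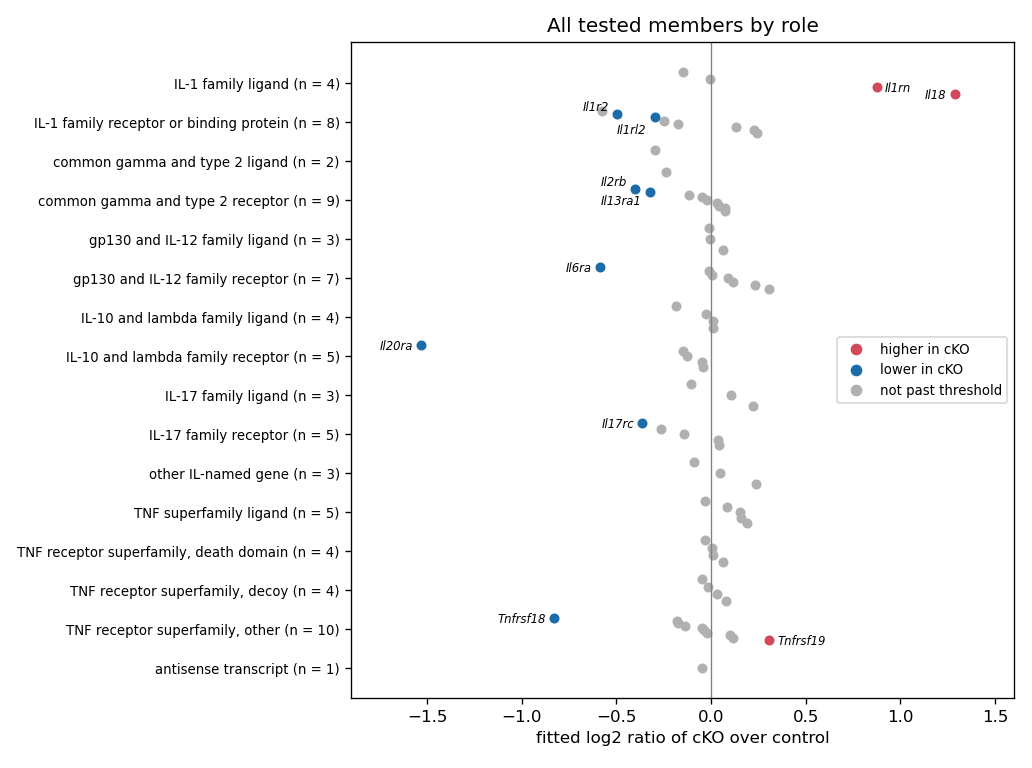
Fitted log2 ratio of cKO over control (x axis) for each of the 77 tested members, 1 point a gene, grouped by role (y axis, with the number tested); red points rose and blue points fell at an adjusted p of 0.05, grey points did not pass. Most members lie near 0, with Il20ra at -1.53 and Il18 at 1.29 as the extremes.

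Some facts of the libraries are set beside the members here. Trp63 itself was 4.52-fold lower in the cKO (log2 ratio -2.18 ± 0.50, SD, n = 4 arrays, adjusted p = 0.00207), with ratios of -2.86, -1.68, -2.03 and -2.13 on arrays 1 to 4. All 7 basal urothelial markers fell, with a median of -2.24. Of 8 markers of epithelium in any layer 4 fell, and their summed level ran from 212394 to 344040 in the cKO against 344156 to 368402 in the control; Epcam stood at -1.18, -0.48, -0.56 and -0.70 on arrays 1 to 4. None of 15 tested leukocyte markers passed (limma, 0 also at an unadjusted p of 0.05), with summed levels of 33186 to 50130 against 34751 to 49508. Of 6 mast cell markers 3 fell. Of 10 hepatocyte markers 5 rose. In summed level 1 library stood apart, at 289371 in the cKO RNA of array 2. The other cKO RNAs had 38756 to 78410 and the controls 37324 to 71512. The median log2 ratio of the 10 markers was 2.28, 2.55, 1.31 and 0.47 on arrays 1 to 4, so by ratio array 1 was high too. Summed superficial urothelium markers were lower in every cKO RNA, at 290745 to 451981 against 462759 to 538156. Those of mesothelium (34957 to 73871 against 19798 to 25665), kidney tubule (5706 to 7895 against 1915 to 3661) and adrenal cortex (1857 to 2856 against 1533 to 1714) were higher. In these lists 0 of 5, 1 of 3, 1 of 4 and 1 of 5 tested markers passed. On array 1, 90.0% of green and 82.6% of red spots passed the scanner's background test. Arrays 2 to 4 had 75.0% to 76.5% green and 72.4% to 72.9% red. In whole ureters, fewer cells of a type and less RNA per cell cannot be told apart, and the part of these marker shifts in the members' values was not tested.

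**Figure D2:**
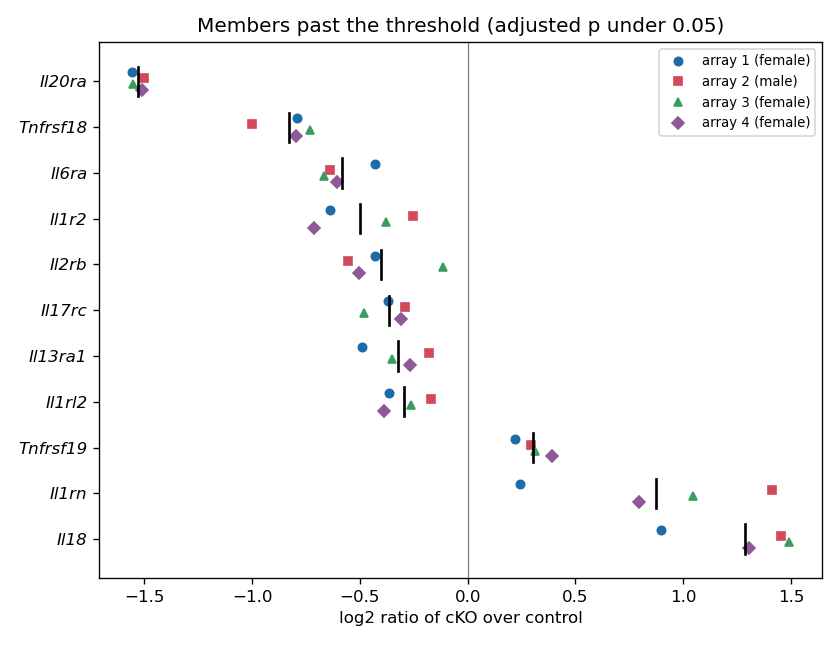
Log2 ratio of cKO over control (x axis) on each of the 4 arrays for the 11 members past the threshold; symbols mark the array and the sex of its pair, black bars the mean. All 4 arrays lie on the same side of 0 for each of the 11 genes, from the tight cluster of Il20ra to the wide spread of Il1rn.

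The largest difference of any member was in the IL-20 receptor. Il20ra encodes the chain that joins IL-20RB to form the epithelial receptor of IL-19, IL-20 and IL-24. Its normalised log2 intensity was 6.91, 7.47, 7.51 and 7.47 in the cKO on arrays 1 to 4 and 8.46, 8.97, 9.06 and 8.98 in the control. Every cKO RNA lay below every control RNA. The gene was 2.89-fold lower in the cKO (log2 ratio -1.53 ± 0.03, SD, n = 4, adjusted p = 0.000291), with ratios between -1.56 and -1.50 on all arrays. It passed under all 15 alternative settings tried, and its size was -2.11 from the scanner's own processed signals, which carry no added offset.

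The partners and ligands of that chain gave smaller values. Il20rb, the second chain of the receptor, stood at -0.13 ± 0.05 (SD, n = 4, adjusted p = 0.218), negative on all 4 arrays. Il22ra1, which pairs with IL-20RB in the other receptor of IL-20 and IL-24, stood at -0.15 ± 0.08 (adjusted p = 0.195), and Il10rb, the shared chain of the IL-10 family, at -0.04 ± 0.12 (adjusted p = 0.750). None of these passed the threshold. The probe of Il22ra1 was well above background on all 4 arrays in the control and on 3 in the cKO. Il10ra, the ligand-binding chain for IL-10, gave -0.05 (adjusted p = 0.659). Among the 4 tested ligands of the IL-10 family none passed in limma, with 0 higher and 1 lower at an unadjusted p of 0.05. Il19 gave -0.19 ± 0.11 (adjusted p = 0.156), and was well above background on all 4 arrays in the control only. Il20, Il22 and Il24 gave -0.03, 0.01 and 0.01.

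**Figure D3:**
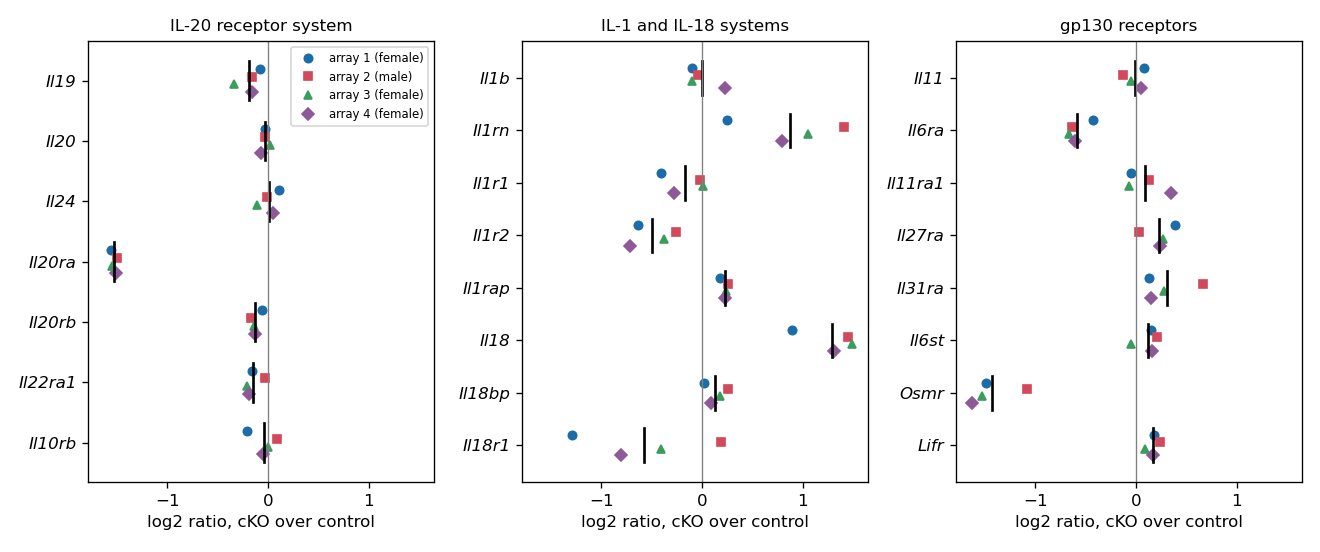
Log2 ratio of cKO over control (x axis) on each array for the genes of 3 receptor systems (y axis), with black bars at the mean; the right panel includes Osmr and Lifr, receptor genes under other names. Il20ra, Il6ra and Osmr lie well left of 0 while their partner chains Il20rb and Il6st lie near it, and Il18 and Il1rn lie right of 0 while the receptor Il18r1 spreads on both sides.

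The IL-1 family was the only group of ligands with called members, 2 of 4 tested, both higher. Over all genes tested 8.54% were called and 2.92% were higher. The other ligand groups had only 2 to 5 tested members each. Il18 encodes a cytokine that many epithelia store as a precursor, which caspase-1 cuts into its active form. Its log2 intensity was 10.12, 10.85, 10.99 and 10.88 in the cKO and 9.22, 9.40, 9.50 and 9.58 in the control. The groups did not overlap, and the smallest difference was on array 1. Il18 was 2.44-fold higher (log2 ratio 1.29 ± 0.27, SD, n = 4, adjusted p = 0.0032), from 0.90 on array 1 to 1.49 on array 3, and passed under all 15 alternatives, including each omission of 1 array (adjusted p from 0.00355 to 0.0168).

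Il1rn encodes the IL-1 receptor antagonist, which occupies the IL-1 receptor without signalling. It read 9.21, 10.37, 10.03 and 10.03 in the cKO and 8.97, 8.95, 8.99 and 9.24 in the control. The cKO RNA of array 1 lay below the control RNA of array 4, so the groups overlapped through that array; the other 3 cKO RNAs lay above every control. Il1rn was 1.83-fold higher (log2 ratio 0.87 ± 0.49, SD, n = 4, adjusted p = 0.0379), with 0.24 on array 1 against 1.41, 1.05 and 0.79. The cKO RNA of array 2 also had the highest summed level of hepatocyte markers and of several other lists. Mesothelium markers summed to 34957, 73871, 54889 and 51758 in the cKO RNAs of arrays 1 to 4. Kidney tubule markers summed to 5706, 7895, 7561 and 6820, and markers of epithelium in any layer to 212394, 344040, 312626 and 267859. The median log2 ratio of the hepatocyte markers was 2.28, 2.55, 1.31 and 0.47 on arrays 1 to 4. The relation of these marker levels to Il1rn was not tested. Without array 1 the log2 ratio was 1.08 (adjusted p = 0.0287); without array 2, 3 or 4 the adjusted p was 0.0990, 0.0856 and 0.0514. The 2 other tested ligands, Il1b, a product of activated myeloid cells, and Il33, an alarmin of epithelia and stroma, gave 0.00 ± 0.16 (adjusted p = 0.977) and -0.15 ± 0.22 (adjusted p = 0.408). Il1b was well above background on all 4 arrays in the cKO and on 2 in the control. Il1a and the probes still named Il1f5, Il1f6, Il1f8 and Il1f9, older names in the IL-36 family, were not tested.

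On the receptor side of the IL-1 family, 2 of 8 tested members fell and none rose, with 2 higher and 4 lower at an unadjusted p of 0.05 and a median of -0.21. Il1r2, a decoy receptor that captures IL-1 without signalling, read 6.87, 7.59, 7.66 and 7.50 in the cKO and 7.51, 7.85, 8.04 and 8.21 in the control. The ranges overlapped, because both RNAs of array 1 were dim, but each array's cKO lay below its own control. It was 1.41-fold lower (log2 ratio -0.50 ± 0.22, SD, n = 4, adjusted p = 0.0396). Il1rl2, the receptor of the IL-36 cytokines, was 1.23-fold lower with no overlap between groups (log2 ratio -0.30 ± 0.10, adjusted p = 0.0496). Without array 2 the adjusted p of Il1r2 was 0.0301, but without array 1, 3 or 4 it was 0.156, 0.0795 and 0.105; that of Il1rl2 ran from 0.0682 to 0.200 with any array left out.

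Other IL-1 receptor members did not pass. Il1r1, the signalling receptor of IL-1, gave -0.17 ± 0.20 (adjusted p = 0.333), and Il1rap, its accessory chain, 0.22 ± 0.04 with all 4 arrays above 0 (adjusted p = 0.0607). The other passing probes of Il1rap gave 0.16 ± 0.08 and -0.05 ± 0.15. Il1rl1, the receptor of IL-33, found on mast cells among others, gave -0.25 ± 0.19 (adjusted p = 0.0795). The secreted IL-18 binding protein Il18bp gave 0.13 ± 0.10 (adjusted p = 0.275). Il18r1, the receptor of IL-18, had a large mean with a wide spread. It read 9.20, 10.80, 10.54 and 10.15 in the cKO and 10.49, 10.62, 10.94 and 10.95 in the control, a log2 ratio of -0.58 ± 0.62 (SD, n = 4, adjusted p = 0.182). Arrays 1, 3 and 4 were negative, at -1.29, -0.40 and -0.80, and array 2, the male pair, was positive at 0.18. Its second probe gave -0.50 ± 0.48, with -0.017 on array 2.

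**Figure D4:**
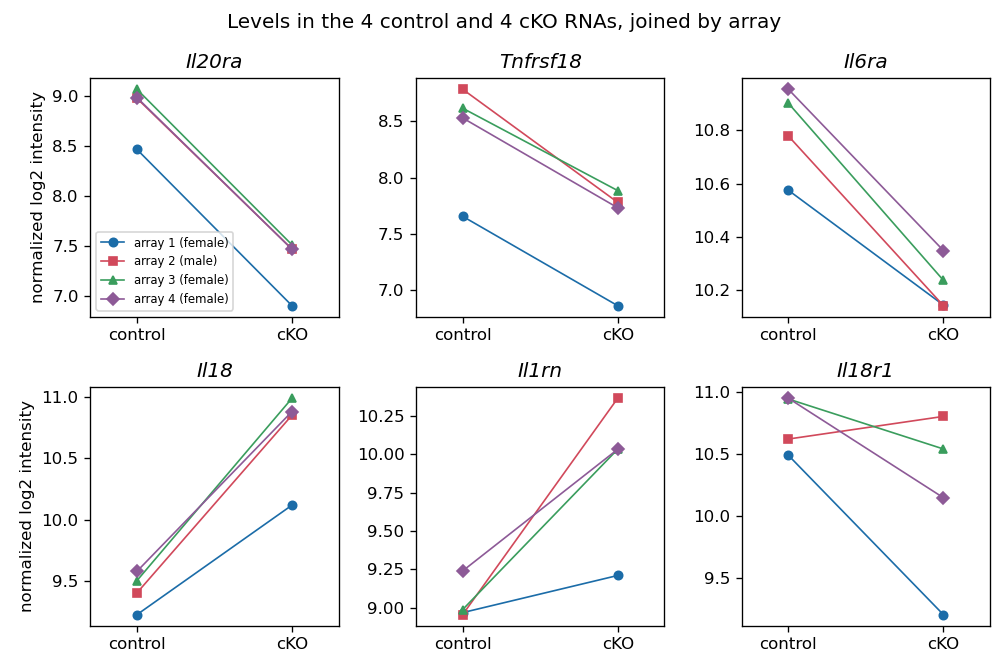
Normalised log2 intensity (y axis, a separate scale in each panel) of 6 members in the 4 control and 4 cKO RNAs (x axis), with lines joining the RNAs of 1 array. The lines of Il20ra, Tnfrsf18 and Il6ra all fall and those of Il18 and Il1rn all rise, that of Il1rn least on array 1, whereas those of Il18r1 cross.

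In the gp130 and IL-12 receptor group 1 of 7 tested members fell. Il6ra encodes the chain that binds IL-6 and hands it to gp130, the product of Il6st. It read 10.14, 10.14, 10.24 and 10.35 in the cKO and 10.58, 10.78, 10.90 and 10.95 in the control. All cKO RNAs lay below all controls. Il6ra was 1.50-fold lower (log2 ratio -0.58 ± 0.11, SD, n = 4, adjusted p = 0.00698) and passed under all 15 alternatives.

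The shared chain Il6st gave 0.11 ± 0.11 (adjusted p = 0.320). Il11ra1, the binding chain for IL-11, gave 0.09 ± 0.19 (adjusted p = 0.456), Il27ra, the receptor chain of IL-27, 0.23 ± 0.15 (adjusted p = 0.0933) and Il31ra, which joins the oncostatin M receptor to bind IL-31, 0.30 ± 0.25 (adjusted p = 0.140). None of these passed, and of the 3 tested ligands of the group (Il11, Il23a and Il27, at -0.01, 0.07 and -0.01) none passed and none reached an unadjusted p of 0.05 in limma.

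Among the receptors of the common gamma chain and type 2 cytokines, 2 of 9 tested fell. Il13ra1, which with IL-4RA forms the receptor of IL-4 and IL-13 outside the blood lineages, read 11.52, 11.37, 11.30 and 11.33 in the cKO and 12.01, 11.55, 11.65 and 11.60 in the control. The groups did not overlap, though array 1's cKO lay just below array 2's control. It was 1.25-fold lower (log2 ratio -0.32 ± 0.13, SD, n = 4, adjusted p = 0.0295). Il2rb, the beta chain of the IL-2 and IL-15 receptors on T and natural killer cells, was 1.32-fold lower (log2 ratio -0.40 ± 0.20, adjusted p = 0.0303), with overlapping levels of 6.80 to 7.51 against 7.23 to 7.92. Without array 3, whose ratio was -0.11, the adjusted p of Il2rb was 0.0353, and with any other array left out it was 0.0976 to 0.106. For Il13ra1 it was 0.0753 to 0.137 with any array left out. The other Il2rb probe, well above background on 0 cKO and 3 control arrays and so not tested, gave -0.14 ± 0.16.

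The partner chains Il4ra, Il2rg and Il15ra gave 0.08, 0.07 and -0.05, and none passed. Il15, a ligand of the Il2rb chain, gave -0.30 ± 0.13, negative on all 4 arrays (adjusted p = 0.0510). Il7, a growth factor of lymphocytes, gave -0.24 ± 0.09, also negative on all arrays (adjusted p = 0.0842); it was well above background on all 4 arrays in the control and on 1 in the cKO.

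In the IL-17 receptor group 1 of 5 tested members fell. Il17rc encodes the chain that joins IL-17RA to bind IL-17A and IL-17F, and read 12.63, 13.00, 12.84 and 12.89 in the cKO and 13.00, 13.29, 13.32 and 13.20 in the control. The lowest control, on array 1, lay just above the highest cKO, on array 2. Il17rc was 1.29-fold lower (log2 ratio -0.36 ± 0.09, SD, n = 4, adjusted p = 0.0173), and its other probe gave -0.26 ± 0.02. With any 1 array left out the adjusted p was 0.0614 to 0.0812. Il17rb, well above background on all 4 arrays in the cKO only, gave 0.04 (adjusted p = 0.711). Il17ra gave -0.14 ± 0.15 (adjusted p = 0.231), and Il17re, which pairs with it to bind IL-17C, gave -0.26 ± 0.34 (adjusted p = 0.250), with -0.67, -0.20 and -0.34 on the female arrays 1, 3 and 4 and 0.15 on the male array 2. Of the ligands Il17b, Il17d and Il25 none passed in limma, with 1 higher at an unadjusted p of 0.05.

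Of the remaining interleukin-named genes, Il16, a chemoattractant of CD4-bearing cells, gave 0.24 ± 0.13 (adjusted p = 0.101), with every cKO RNA at 9.22 or more and every control at 9.19 or less. Il34, a ligand of the CSF-1 receptor, gave 0.05, and Il4i1, an amino acid oxidase, -0.09. In all, 8 of the 77 tested members had levels that did not overlap between genotypes, 7 of them among the 11 called; the share over all genes tested was 9.83%.

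In the TNF superfamily 2 of the 24 tested members passed, both receptors without a death domain; this share, 8.33%, is near the 8.54% called over all genes tested. Tnfrsf18 encodes GITR, a costimulatory receptor best known on regulatory T cells. Its log2 intensity was 6.87, 7.78, 7.89 and 7.73 in the cKO and 7.66, 8.78, 8.62 and 8.53 in the control. The ranges overlapped through array 1, where both RNAs read lowest; on every array the cKO lay below its own control. Tnfrsf18 was 1.78-fold lower (log2 ratio -0.83 ± 0.12, SD, n = 4, adjusted p = 0.00215), the second largest decrease among the tested members, and it passed with any 1 array left out (adjusted p from 0.0076 to 0.0152). The 3 tested T cell genes of the leukocyte list, Cd3e, Cd4 and Cd8a, gave -0.05, -0.05 and 0.07, and its ligand Tnfsf18 was not tested.

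Tnfrsf19 encodes TROY, a receptor of embryonic epithelia and neural progenitors. It read 13.70, 13.77, 13.70 and 13.66 in the cKO and 13.48, 13.48, 13.39 and 13.27 in the control. Every cKO RNA lay above every control. The gene was 1.23-fold higher (log2 ratio 0.30 ± 0.07, SD, n = 4, adjusted p = 0.0310), its second probe gave 0.23 ± 0.17, and with any 1 array left out the adjusted p was 0.0792 to 0.137.

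The death-domain and decoy receptors did not pass. The 4 tested with a death domain were Tnfrsf1a, the main TNF receptor, at 0.01 ± 0.09, Tnfrsf10b, the mouse TRAIL receptor, at -0.03 ± 0.12, Tnfrsf25 at 0.06 ± 0.10 and Tnfrsf21 at 0.00 ± 0.35. Tnfrsf21 had the same mean in both genotypes but spread between -0.40 on array 1 and 0.42 on array 2. Of the decoys, osteoprotegerin (Tnfrsf11b), which captures RANKL, gave -0.02 ± 0.28, and Tnfrsf22, Tnfrsf23 and Tnfrsf26 gave 0.08, 0.03 and -0.05. In limma 0 of these 8 receptors reached an unadjusted p of 0.05.

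No other TNF receptor without a death domain passed. RANK (Tnfrsf11a) gave -0.17 ± 0.07 (adjusted p = 0.140), negative on all 4 arrays, and Tnfrsf9, a T cell costimulator, -0.04. Tnfrsf12a, the receptor of TWEAK, gave -0.18 ± 0.39 (adjusted p = 0.115), and its sign followed the dye rather than the pair, at 0.10 and 0.21 where the cKO was labelled red and -0.54 and -0.49 where it was labelled green. None of the 5 tested ligands passed in limma, with 2 higher and 0 lower at an unadjusted p of 0.05. TWEAK itself (Tnfsf12) gave 0.19 ± 0.03, above 0 on all arrays (adjusted p = 0.0970), and TRAIL (Tnfsf10), a death ligand, gave 0.16 ± 0.19 (adjusted p = 0.207). BAFF (Tnfsf13b), a B cell survival factor, spread between -0.41 and 0.43, and Tnfsf9 and Tnfsf15 gave -0.03 and 0.09. The antisense transcript Tnfsf13os gave -0.05 ± 0.32.

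Genes of the same families under other names and the shared signalling genes were read beside the members. Osmr, the oncostatin M receptor chain that also forms the IL-31 receptor with IL-31RA, was 2.70-fold lower (log2 ratio -1.43 ± 0.24, SD, n = 4, adjusted p = 0.00205), the only one of 15 tested receptors under other names to pass. Its ratios were -1.50, -1.08, -1.53 and -1.63. The leukaemia inhibitory factor receptor Lifr, an alternative partner of gp130, gave 0.17 ± 0.06 (adjusted p = 0.132). Of 15 tested ligands under other names none passed in limma, with 3 higher and 2 lower at an unadjusted p of 0.05. Tnf gave 0.04.

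Edaradd, the adaptor of the ectodysplasin receptor of the TNF superfamily, was 3.40-fold lower (log2 ratio -1.77 ± 0.15, SD, n = 4, adjusted p = 0.000291). It was the only one of 29 tested TNF receptor adaptors and NF-kB pathway genes to pass. Edar, the ectodysplasin receptor itself, was not tested, and the related receptor Eda2r gave -0.10. None of 26 tested genes of interleukin receptor signalling passed in limma, with 2 higher and 6 lower at an unadjusted p of 0.05. Over all 18170 genes tested these counts were 1970 and 2330. Traf3ip2, the adaptor of IL-17 receptors, gave -0.23 ± 0.04 (adjusted p = 0.0544), and Casp1 and Pycard, the caspase that cuts IL-18 and its adaptor, gave -0.07 and -0.36 (adjusted p = 0.0902 for Pycard).

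The 250 bases before the annotated start were searched for motifs in the 88 members with a window in the RefSeq table (build GRCm38.p6). The AP-1 motif TGANTCA, on either strand, was found in 16.8% of the windows of members, in 2 of the 13 windows of the called members and in 6.75% of all 32851 windows. The STAT motif TTCNNNGAA was found in 13.1%, in 2 of 13 and in 7.02%. The p53 family half-site and the NF-kB consensus were found in 6.54% and 8.41% of member windows against 7.13% and 7.25% of all, and in none of the 13. A match is a description of the letters only. The windows of Il20ra (AP-1 match in capitals), of Il1rn (1 of its 3 windows, the only one of them with an AP-1 match, in capitals), of Tnfrsf18 (STAT match in capitals) and of Il18 (no match of the 4) are shown because these 4 genes had the largest differences among the called members.
Il20ra, chr10:19712337-19712586, plus strand: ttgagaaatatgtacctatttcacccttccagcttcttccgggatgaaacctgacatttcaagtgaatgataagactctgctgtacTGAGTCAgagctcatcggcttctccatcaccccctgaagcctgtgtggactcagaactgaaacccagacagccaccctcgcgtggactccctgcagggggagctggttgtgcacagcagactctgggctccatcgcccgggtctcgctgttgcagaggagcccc
Il1rn, chr2:24336610-24336859, plus strand: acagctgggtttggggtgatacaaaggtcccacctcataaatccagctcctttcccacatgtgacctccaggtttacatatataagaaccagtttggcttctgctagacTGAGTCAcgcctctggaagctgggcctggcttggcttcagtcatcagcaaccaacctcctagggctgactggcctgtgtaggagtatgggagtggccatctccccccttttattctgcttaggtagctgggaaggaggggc
Tnfrsf18, chr4:156026072-156026321, plus strand: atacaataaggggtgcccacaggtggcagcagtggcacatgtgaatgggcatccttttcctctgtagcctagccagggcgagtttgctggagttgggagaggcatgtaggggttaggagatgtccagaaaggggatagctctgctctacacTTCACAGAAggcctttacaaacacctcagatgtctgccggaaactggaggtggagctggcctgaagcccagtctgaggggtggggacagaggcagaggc
Il18, chr9:50554450-50554699, plus strand: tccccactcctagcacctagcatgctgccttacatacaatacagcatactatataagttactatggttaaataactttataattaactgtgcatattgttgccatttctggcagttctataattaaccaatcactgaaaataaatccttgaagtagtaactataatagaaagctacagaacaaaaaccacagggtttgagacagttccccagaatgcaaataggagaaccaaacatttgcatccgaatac
The AP-1 match starts 164 bases before the start in Il20ra and 141 in the Il1rn window shown, and the STAT match 99 bases before it in Tnfrsf18.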

How the data were processed

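The scanner files (Agilent Feature Extraction, version 10.7.3.1 in the submitters' processing notes) gave a mean and background intensity per spot in each dye, per the file headers; the deposited value table held log2 ratios of cKO over control, as a comparison with the scanner values showed. The RNA (200 ng per labelling, 1 round of amplification) was hybridised in pairs.

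Intensities were background-corrected (normexp, offset 50), normalised within arrays by loess with outlier spots left out, and levels scaled between arrays (Aquantile). Genes were named through RefSeq's table (GRCm38.p6); all 113 member symbols matched. A probe was tested if over 0.5 of its spots were well above background on all 4 arrays in 1 genotype. The turned log2 ratios were fitted with limma 3.58.1 in R 4.3.3 (lmFit, eBayes, a dye term, 2 residual degrees of freedom). The ± values are SDs over 4 arrays. Nothing says that the RNAs came from separate embryos, so a p-value covers the array-to-array spread alone; all 4 arrays lie on 1 slide, and their number limits precision. Log2 ratios of dim probes are drawn towards 0 by the offset.

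The text names every called member, those over 0.5 in size, the 2 brightest of each role group, those above background on all 4 arrays in 1 genotype and on at most 1 in the other, and others with their group. The members and lists were chosen with earlier results of these data known. On simulated data with normal noise of the fitted size, 99.0% of genes changed by 1 on the log2 scale were recovered. Changes below 1 were not simulated, so this gives no recovery rate for the 71 of 77 tested members below 0.5 in size. Alternatives were other background corrections, scalings, filters, probe rules, the dye term, the deposited table, single-channel fits and leaving out each array.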

Additional observations from a re-analysis of the deposited data

Results flagged for a closer look

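For 9 of the 77 tested members the male pair (array 2) had the opposite sign to all 3 female pairs: Il12rb1 at -0.11, Il17b at -0.086, Il17d at -0.12, Il17rd at -0.20, Il17re at 0.15, Il18r1 at 0.18, Il3ra at -0.19, Tnfrsf14 at 0.12 and Tnfrsf22 at -0.0048 (log2 ratio of cKO over control). Arrays 1, 3 and 4 stood alone in sign in the same way for 6, 6 and 8 members. The widest male minus female difference among the 9 was 0.99, in Il18r1 (adjusted p = 0.969, limma with a sex term, over all genes tested). The second probe of Il18r1 gave -0.017 in the male pair. Sex and array 2 cannot be told apart. The summed level of markers of epithelium in any layer also differed between the cKO RNAs. It was 212394, 344040, 312626 and 267859 on arrays 1 to 4, and its relation to Il18r1 and Il17re was not tested. For Il3ra, array 2 also lay far from the other 3 arrays, by Dixon's test, which flags about 1 in 20 groups by chance.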

How the results depend on the processing

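No called member turned its direction under the 15 alternatives. Il20ra, Il18 and Il6ra passed under all of them and Tnfrsf18 under 14; the other 7 called members passed under 6 to 10. From the deposited value table, 1 member rose and 4 fell (253 and 583 over all genes). With the 2 channels of a spot fitted separately and the array as the block that pairs cKO with control (intra-spot correlation 0.741), 6 members rose and 13 fell (1238 and 1730 over all genes), and all 11 called members remained. The same fit with no replicate block gave 1 higher and 2 lower (120 and 438 over all genes), and Tnfrsf18 then had an adjusted p = 0.324. The replicate numbers of the labels are the arrays, so the ratios used throughout are already paired. With 1 array left out, 1 to 2 members rose and 3 to 4 fell (277 to 359 and 554 to 767 over all genes), with 1 residual degree of freedom. The cause of these differences was not tested. The other settings gave counts within 1.5 times those reported. Signal over background limits the 36 members not tested and the size of the ratio of dim probes such as Il20ra, Tnfrsf18, Il2rb, Il1r2 and Il7.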
